A study of Mus musculus with 9 samples.

Results

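HL-1 cells exposed to ivermectin were compared with vehicle-treated cells across every transcript measured by RNA sequencing. The comparison takes 6 of the study's 9 libraries: 3 from cells given 5 µM ivermectin and 3 from cells given 0.1% DMSO as vehicle, each harvested after 24 h. HL-1 is an immortalised line of mouse atrial cardiomyocytes, grown here in Claycomb medium, so every group is the same cell line. The other 3 libraries came from cells given 10 µM importazole, an inhibitor of importin-β, for 24 h. They enter the shared estimate of spread and 1 direct test near the end. How much DMSO the ivermectin cells received, and whether replicate libraries came from separate cultures, is not stated in the labels. The p-values therefore reflect the spread among these libraries alone, part of which can be technical.

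Ivermectin is an antiparasitic drug that opens glutamate-gated chloride channels of worms and insects, binds several vertebrate ligand-gated channels, and is used in the laboratory to block nuclear import by importin α/β. Several of the responses described here have well-known control circuits. ATF4 is a transcription factor that is translated when the initiation factor eIF2 is phosphorylated, and it switches on amino acid synthesis, amino acid uptake and tRNA charging. HIF transcription factors switch on glycolysis and mitophagy receptors when prolyl hydroxylases lack oxygen, and SREBP-2 switches on the mevalonate and sterol pathway when membrane cholesterol is low.

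Levels are FPKM, fragments normalised for transcript length and library size. Of 25175 gene symbols, 11190 had at least 1 FPKM in at least 3 of the 6 libraries and were tested. A change is the difference between group means of log2(FPKM + 1), a scale that understates changes of weakly expressed genes. Genes were called changed at a Benjamini-Hochberg adjusted p under 0.05 in limma (two-sided, adjusted over all 11190 genes), and "rose" and "fell" are used of called genes only. Read depth could not be recovered from the values.

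The libraries were alike overall. Pearson correlations across the tested genes, which are not independent replicates, ran from 0.9844 to 0.9914 for libraries of the same group and from 0.9801 to 0.9875 for libraries of different groups. Summed FPKM ran from 365259 in vehicle 2 to 416748 in vehicle 1. One transcript, Yam1, had no signal in vehicle 2 or in ivermectin 3 (listed at 0) but 30134 to 41567 FPKM in the other 4, so results were also computed without these Yam1-zero libraries. The 10 cardiomyocyte markers were all tested and summed to 5308 to 5934 FPKM with vehicle and 4854 to 5153 FPKM with ivermectin. Of these markers 3 fell, Mybpc3, Myh6 and Actc1, and without the Yam1-zero libraries only Mybpc3 did; the call of Actc1 (limma adjusted p = 0.0314) also ended without vehicle 1, vehicle 2, vehicle 3, ivermectin 1 or ivermectin 2, with adjusted p up to 0.12. Markers of endothelium and macrophages were low, summing to 10.3 to 11.3 and 9.005 to 10.3 FPKM and to 0.816 to 1.63 and 0.936 to 2.29 FPKM. Adipocyte markers summed to 45.6 to 51.3 and 38.4 to 45.0 FPKM. Their 1 tested gene, Fabp4, had a log2 change of -0.26 and was not called. Skeletal muscle markers summed to 13.6 to 14.7 and 11.95 to 15.5 FPKM. Fibroblast markers summed to 23.7 to 26.9 FPKM with vehicle and 36.9 to 38.9 FPKM with ivermectin. Nearly all of that was Ddr2, a collagen receptor that rose, while the defining genes Col1a1 and Dcn were at or under 1.24 FPKM in each of the 6 libraries. Smooth muscle markers, mostly the actin gene Acta2 and Tagln, summed to 1347 to 1404 and 1158 to 1279 FPKM. No smooth muscle member was called by limma, and 3 of 3 tested had an unadjusted p under 0.05, beside 2339 of all 11190 genes. The part of these shifts in the results below was not tested. In bulk RNA, fewer cells of a kind and less RNA per cell cannot be told apart.

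In ivermectin-treated cells, genes of the ATF4 response rose, among them transcription factors, serine and proline synthesis enzymes, amino acid transporters and cytosolic tRNA synthetases. Hypoxia-inducible genes, glycolytic enzymes, sterol synthesis enzymes, the transferrin receptor gene and a set of contractile genes fell. In all, 490 genes were called (4.38% of those tested), 204 higher (1.82%) and 286 lower (2.56%). The called changes were mostly small, with a median size of 0.46 among genes that rose and 0.44 among genes that fell, and 40 reached 1 log2 unit, 24 upward and 16 downward. Of all tested genes 97.5% changed by less than 0.5 log2 units, the median change was 0.01, and the median standard error was 0.098. In each of the 490 called genes the 3 ivermectin libraries lay wholly above or below the 3 vehicle libraries, which was so in 24.7% of all genes tested.

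Abundant genes were called more often, from 2.19% of the 2238 least abundant (mean level 0.736 to 3.53 FPKM) to 7.73% of the 2238 most abundant (30.9 FPKM or more), where 62 rose and 111 fell. The median standard error was 0.128 among the former and 0.077 among the latter. Larger changes were the firmer calls. Of the 40 calls of at least 1 log2 unit, 39 were kept when each of the 6 libraries was left out in turn. This held for 92 of 145 calls between 0.5 and 1 log2 unit and for 56 of 305 calls under 0.5. Leaving out vehicle 1 gave 266 calls, vehicle 2 gave 244, ivermectin 1 gave 306 and ivermectin 3 gave 314. Leaving out the Yam1-zero libraries together gave 195.

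**Figure D1:**
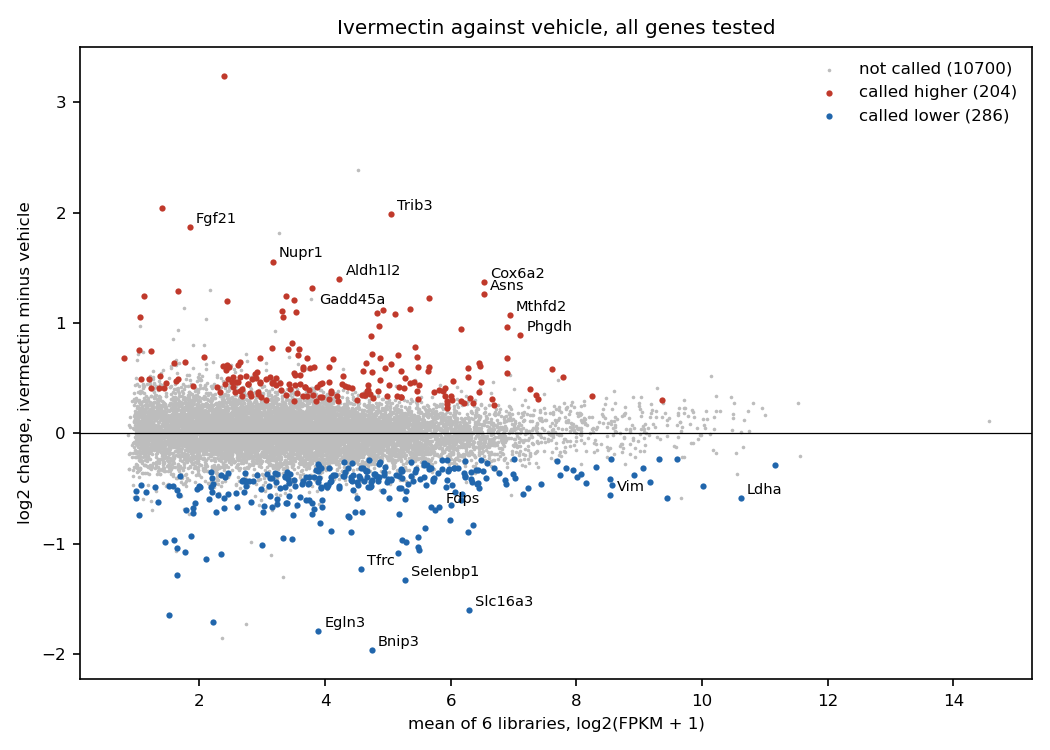
Change with ivermectin against mean level for the 11190 tested genes. The horizontal axis is the mean log2(FPKM + 1) over the 6 libraries and the vertical axis the log2 change, ivermectin minus vehicle; red points are the 204 genes called higher, blue points the 286 called lower, grey points the rest, and the scatter narrows toward abundant genes.

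Values below are listed for replicates 1, 2 and 3, vehicle first and ivermectin second, and gene coordinates are those of GENCODE M21 on GRCm38. Trib3, a pseudokinase that is a target and inhibitor of ATF4 (chromosome 2, 152337422 to 152344032, minus strand), had the largest increase among called genes with a mean of at least 5 FPKM, small RNAs left out. It was at 12.2, 11.6 and 13.02 FPKM with vehicle and 52.2, 50.4 and 52.3 FPKM with ivermectin. The groups lay far apart and the replicates close together, with a log2 change of 1.99 ± 0.0657 (standard error; limma adjusted p = 1.02e-07). Nupr1, a small stress-induced chromatin protein gene (chromosome 7, 126623249 to 126630861, minus strand), was at 4.67, 3.55 and 2.51 FPKM with vehicle and 9.93, 14.9 and 12.2 FPKM with ivermectin. Its replicates spread more widely but the groups did not overlap (log2 change 1.56 ± 0.192, limma adjusted p = 0.000897). Gadd45a, which slows the cell cycle after stress (chromosome 6, 67035096 to 67037457, minus strand), was at 6.53, 6.17 and 8.22 FPKM and then 21.6, 17.1 and 17.9 FPKM, with the ivermectin libraries well clear of vehicle (log2 change 1.32, limma adjusted p = 9.81e-05).

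Cox6a2, the striated muscle isoform of a cytochrome c oxidase subunit (chromosome 7, 128205435 to 128206387, minus strand), was at 52.4, 49.6 and 48.6 FPKM with vehicle and 118, 141 and 135 FPKM with ivermectin (log2 change 1.37 ± 0.0873, limma adjusted p = 1.01e-05). No other of the 14 tested cytochrome oxidase subunit genes was called, and their median change was 0.07. Slc25a33, which carries pyrimidine nucleotides into mitochondria (chromosome 4, 149744036 to 149774277, minus strand), was at 5.77, 6.33 and 5.54 FPKM and 14.1, 14.97 and 15.7 FPKM, again without overlap (log2 change 1.21, limma adjusted p = 1.02e-05). Pck2, the mitochondrial phosphoenolpyruvate carboxykinase, was at 18.3, 16.9 and 15.9 FPKM and 38.1, 38.5 and 35.7 FPKM (log2 change 1.09, limma adjusted p = 1.68e-05). Gdf15, a secreted stress hormone, also had separate groups, at 8.32, 4.99 and 5.93 FPKM and 13.2, 14.3 and 16.7 FPKM (log2 change 1.10, limma adjusted p = 0.00326).

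Several of the largest decreases were in genes that HIF is known to induce. Bnip3, a receptor that marks mitochondria for removal (chromosome 7, 138890836 to 138909519, minus strand), was at 43.3, 41.3 and 40.3 FPKM with vehicle and 10.3, 9.30 and 10.2 FPKM with ivermectin. Every ivermectin library was far below every vehicle library (log2 change -1.97 ± 0.0700, limma adjusted p = 1.13e-07). Slc16a3, an exporter of lactate (chromosome 11, 120948480 to 120960868, plus strand), was at 114, 129 and 108 FPKM and 36.4, 41.7 and 35.2 FPKM (log2 change -1.60 ± 0.0860, limma adjusted p = 2.84e-06). Tfrc, the transferrin receptor that takes iron into cells (chromosome 16, 32608920 to 32632794, plus strand), was at 34.4, 30.9 and 31.5 FPKM and 13.9, 11.97 and 13.8 FPKM, and its groups were as cleanly separated (log2 change -1.23 ± 0.0918, limma adjusted p = 2.40e-05).

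Further large decreases are given here without sorting the genes by HIF control. Ndrg1, a stress-responsive gene, was at 10.7, 9.85 and 8.42 FPKM and 4.88, 4.55 and 3.49 FPKM (log2 change -1.01, limma adjusted p = 0.000721). Bhlhe40, a transcriptional repressor in the clock network, was at 45.3, 47.7 and 52.6 FPKM and 25.7, 27.6 and 20.3 FPKM (log2 change -0.96, limma adjusted p = 0.000307). The groups were separate in both genes. Lamb3, a laminin chain, fell from 14.3, 13.5 and 13.4 to 6.63, 6.92 and 6.23 FPKM, and Rrad, a small GTPase that restrains calcium channels, from 87.96, 109.8 and 101 to 56.7, 46.1 and 56.9 FPKM (log2 changes -0.95 and -0.89). Mgarp and Bnip3l, a mitochondrial transport adaptor and a mitophagy receptor, had log2 changes of -0.95 and -0.94. Selenbp1 fell with a log2 change of -1.33, but its sequence is nearly that of Selenbp2 (change -1.10, limma adjusted p = 0.00644, or 0.0697 without the Yam1-zero libraries), so the counting could have split reads between them. Aldh1l2, Psph, Atf5, Fam162a, Tpi1, Cyp51, Ddr2, Cryab, Ccna2, Gja5 and Tagln lie across another tested gene read in the other direction, and since strand use is not stated their values are uncertain. The calls of the 15 largest increases and 15 largest decreases were kept under each of the 17 alternative analyses.

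**Figure D2:**
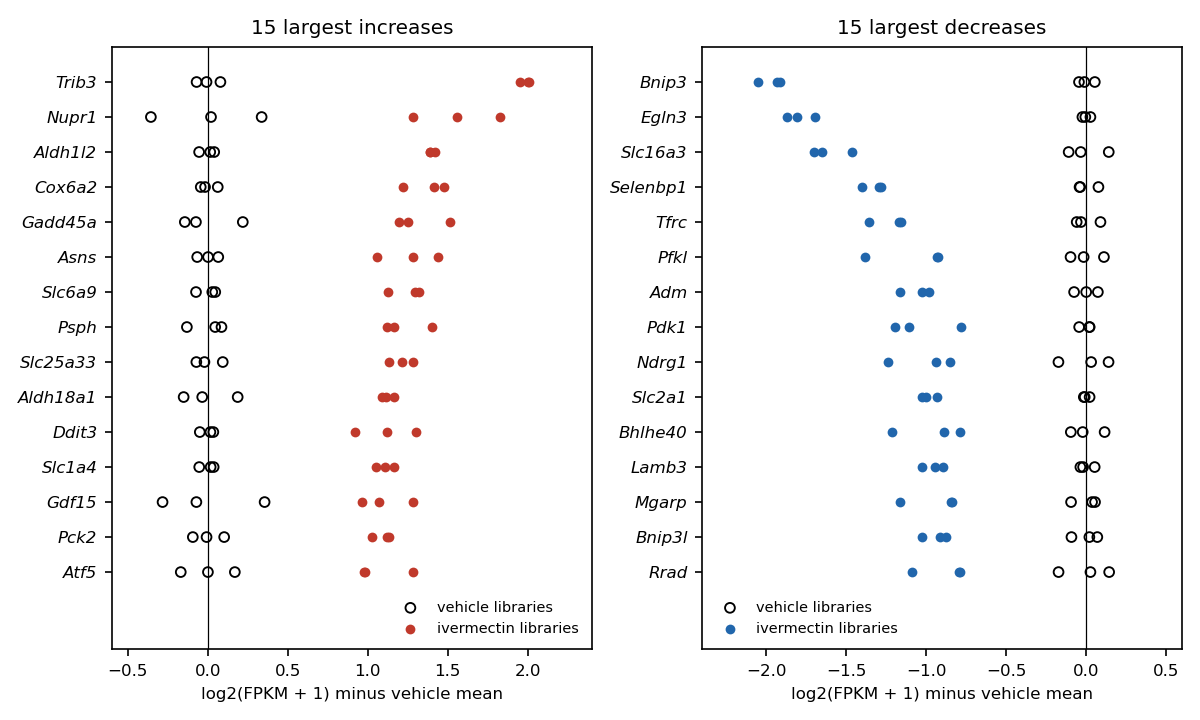
The 15 largest increases (left) and 15 largest decreases (right) among called genes with a mean of at least 5 FPKM. Each point is 1 library, as log2(FPKM + 1) minus the mean of the 3 vehicle libraries. Open circles are vehicle and filled circles ivermectin, and only genes whose groups do not overlap could be chosen.

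Short DNA motifs known to bind these factors were searched in the 250 bases before each RefSeq start (GRCm38.p6), on both strands, for the 8308 tested genes with an entry. The composite element bound by ATF4 with C/EBP partners, TGATGNAA, was in 2.15% of those genes. Among 65 listed amino acid response genes with an entry it was in 9 of 32 that rose, 0 of 1 that fell and 3 of 32 not called. The examples below, 5′ to 3′ on the gene's strand, are from 6 genes that rose and from Got1, which was not called; capitals mark the match on either strand.
Fgf21 (chr7:45615597-45615654, minus strand): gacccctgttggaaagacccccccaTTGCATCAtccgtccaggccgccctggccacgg
Nupr1 (chr7:126625548-126625605, minus strand): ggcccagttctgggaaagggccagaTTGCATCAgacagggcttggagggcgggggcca
Pycr1 (chr11:120643819-120643876, minus strand): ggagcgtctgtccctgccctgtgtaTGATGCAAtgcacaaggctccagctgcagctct
Asns (chr6:7693210-7693257, minus strand): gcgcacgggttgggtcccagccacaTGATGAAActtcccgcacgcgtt
Aars (chr8:111033705-111033762, plus strand): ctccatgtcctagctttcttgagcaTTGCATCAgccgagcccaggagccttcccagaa
Tars (chr15:11399659-11399698, minus strand): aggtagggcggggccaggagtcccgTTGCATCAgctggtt
Got1 (chr19:43524675-43524732, minus strand): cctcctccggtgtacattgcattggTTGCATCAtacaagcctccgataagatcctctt
The match read TTGCATCA or TGATGCAA, its reverse complement, in 6 of these 7 windows and TGATGAAA in Asns. Got1, an aspartate aminotransferase, carries the same letters as Nupr1 and was at 260.4, 219 and 229 FPKM with vehicle and 238, 265 and 249 FPKM with ivermectin, groups that overlapped (log2 change 0.09, limma adjusted p = 0.548).

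The core of the HIF response element, ACGTG, is short and was in 26.1% of tested genes with an entry. It was in 16 of 27 listed hypoxia, oxygen-sensor and glycolysis genes that fell, 1 of 1 that rose and 4 of 16 not called. The other core spelling, GCGTG, was in 52.5% of tested genes, 17 of the 27 that fell, 1 of 1 that rose and 11 of 16 not called. Windows are shown for 5 genes with large decreases or high levels, with 1 match to ACGTG (or CACGT on the other strand) in capitals. Further matches within the windows of Slc16a3, Bnip3 and Ldha are not marked.
Bnip3 (chr7:138909585-138909639, minus strand): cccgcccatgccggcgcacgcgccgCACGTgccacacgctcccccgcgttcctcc
Egln3 (chr12:54204074-54204124, minus strand): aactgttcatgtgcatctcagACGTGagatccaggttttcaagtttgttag
Slc16a3 (chr11:120949015-120949066, plus strand): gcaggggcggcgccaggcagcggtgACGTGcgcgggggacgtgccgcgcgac
Slc2a1 (chr4:119108684-119108738, plus strand): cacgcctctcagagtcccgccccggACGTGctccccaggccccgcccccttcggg
Ldha (chr7:46845634-46845688, plus strand): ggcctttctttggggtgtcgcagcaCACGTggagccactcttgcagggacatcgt
A sterol element spelled TCACNCCAC was in 1.2% of tested genes and in 1 of 26 listed sterol genes with an entry, Hmgcs1, the synthase that opens the mevalonate pathway, which fell.
Hmgcs1 (chr13:119690189-119690247, plus strand): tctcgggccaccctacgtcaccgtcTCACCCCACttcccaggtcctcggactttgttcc
A match is a description of letters in these windows, and a motif that is absent from a window can lie elsewhere.

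Among ATF4 and its regulators, 20 of 22 listed genes were tested: 10 rose, 1 fell and 9 were not called, with a median log2 change of 0.46 beside 0.01 for all genes. Atf4 itself was at 82.4, 72.6 and 84.1 FPKM with vehicle and 146, 156 and 167 FPKM with ivermectin, so the lowest ivermectin library was well above the highest vehicle library (log2 change 0.96 ± 0.0764, limma adjusted p = 4.15e-05). Its relative Atf5 had a log2 change of 1.08, and Ddit3, which encodes the stress factor CHOP, was at 17.3, 18.2 and 18.4 FPKM and 34.9, 45.9 and 40.3 FPKM (log2 change 1.12, limma adjusted p = 0.000526). Fgf21, a metabolic hormone, was barely detected at 0.440, 0.637 and 0.567 FPKM with vehicle and was at 5.03, 4.78 and 4.14 FPKM with ivermectin (log2 change 1.87, limma adjusted p = 7.42e-06). With every vehicle value under 1 FPKM, Fgf21 passed the filter only through the ivermectin libraries, where it was high. It was not tested under the 5 FPKM filter. The member that fell was Ddit4, an mTORC1 inhibitor (log2 change -0.58, limma adjusted p = 0.0105, or 0.0718 without the Yam1-zero libraries). Sesn2, a leucine sensor that also restrains mTORC1, rose, at 8.21, 7.18 and 8.15 FPKM and 14.97, 15.5 and 11.8 FPKM (log2 change 0.76, limma adjusted p = 0.00144).

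Of the 21 tested brakes and sensors of mTORC1, which include these 2 genes, 2 rose (Sesn2 and Fnip2), 1 fell and 18 were not called, with a median of 0.12. Among 37 translation initiation factors 3 rose, beside 1.82% of all genes, and none fell, again with a median of 0.12. Eif3c, a subunit of the factor that recruits the small ribosomal subunit, was at 76.3, 74.1 and 72.5 FPKM and 98.7, 106 and 104 FPKM (log2 change 0.46, limma adjusted p = 0.000693). Eif2s2, the β subunit of eIF2, was at 70.5, 64.9 and 71.2 FPKM and 96.5, 99.5 and 122.8 FPKM (log2 change 0.61, limma adjusted p = 0.0033). The third was Eif2b3 (log2 change 0.44, limma adjusted p = 0.0242), whose call ended without vehicle 1, vehicle 2, vehicle 3, ivermectin 2 or ivermectin 3 (adjusted p up to 0.0738).

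Enzymes that make serine and feed folate one-carbon units rose in 6 of 15 tested genes (of 16 listed) and fell in none, with a median of 0.29. Phgdh, the first step of serine synthesis, was at 93.6, 93.4 and 99.7 FPKM and 173, 189 and 172 FPKM (log2 change 0.89, limma adjusted p = 1.02e-05). Psat1, the next step, was at 61.96, 63.9 and 56.1 FPKM and 91.8, 93.2 and 90.7 FPKM, a smaller change of 0.59, and Psph, the last step, had 1.23. The mitochondrial folate enzymes Aldh1l2 and Mthfd2 changed by 1.40 and 1.07. Each of the 6 calls was kept whichever library was left out. The values of Aldh1l2 and Psph stay uncertain, as above, since leaving out libraries does not address strand use.

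Nonessential amino acid synthesis had 4 of 14 tested genes higher, none lower and a median of 0.16. Its increases were on the asparagine, proline and alanine branches. Asns, asparagine synthetase, was at 55.7, 53.3 and 50.8 FPKM and 112, 131 and 146 FPKM (log2 change 1.26, limma adjusted p = 2.40e-05). Aldh18a1 and Pycr1, the first and last steps of proline synthesis from glutamate, were at 22.003, 23.9 and 28.1 and 6.57, 4.89 and 5.13 FPKM with vehicle. With ivermectin they were at 54.3, 56.3 and 53.4 and 12.7, 13.2 and 11.7 FPKM (log2 changes 1.12 and 1.06). Gpt2, a mitochondrial alanine aminotransferase, was at 7.83, 5.50 and 7.78 FPKM and 11.3, 13.997 and 13.9 FPKM (log2 change 0.82). Prodh, which degrades proline, was at 2.57, 3.14 and 2.26 FPKM and 3.18, 4.43 and 4.49 FPKM and was not called (limma adjusted p = 0.0925).

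Among amino acid transporters 8 of 16 tested genes (of 23 listed) rose and 1 fell, with a median of 0.40. Slc6a9, a glycine carrier, was at 5.34, 5.25 and 4.83 FPKM and 14.1, 14.3 and 12.4 FPKM (log2 change 1.25, limma adjusted p = 0.000279). Slc1a4, a carrier of serine and alanine, was at 5.46, 5.06 and 5.37 FPKM and 13.1, 12.6 and 12.02 FPKM, with tight replicates in both groups (log2 change 1.11, limma adjusted p = 1.02e-05). The cationic amino acid carrier Slc7a1 and the glutamine carrier Slc38a3 had changes of 0.64 and 0.51. Slc6a6, which carries taurine, was the member that fell, from 16.9, 18.5 and 17.7 FPKM to 11.2, 11.5 and 11.1 FPKM (log2 change -0.60, limma adjusted p = 0.000626).

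Aminoacyl-tRNA synthetases load each amino acid onto its tRNA. Most amino acids, but not all, have separate enzymes for the cytosol and the mitochondrion. Of the 20 cytosolic genes 11 rose and none fell (median 0.54, range -0.14 to 0.97), and 10 or 11 were called whichever library was left out. Cars, for cysteine, was at 18.9, 16.9 and 19.7 FPKM and 37.4, 38.02 and 36.4 FPKM (log2 change 0.97, limma adjusted p = 2.17e-05). Aars, for alanine, whose promoter window is shown above, was at 92.8, 86.9 and 91.7 FPKM and 133, 165 and 141 FPKM, and Tars, for threonine, at 39.4, 38.6 and 38.9 FPKM and 56.9, 62.9 and 58.9 FPKM (log2 changes 0.68 and 0.60). In each of these genes the groups were separate. Iars, for isoleucine, was at 18.3, 19.6 and 20.1 FPKM and 31.1, 33.3 and 33.3 FPKM, and Nars, for asparagine, at 33.2, 31.2 and 33.7 FPKM and 49.3, 55.6 and 55.4 FPKM (log2 changes 0.72 and 0.69). The members fell into separate ranges. The 11 that rose had changes of 0.51 to 0.97, while the 9 not called had -0.14 to 0.21. Of the 17 mitochondrial synthetases 1, Tars2, was called (log2 change 0.36, limma adjusted p = 0.0247), and the median was 0.05. The Tars2 call ended without vehicle 1, vehicle 2, ivermectin 1 or ivermectin 2 (adjusted p up to 0.0975). Whether the cytosolic and mitochondrial lists differ was not tested.

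**Figure D3:**
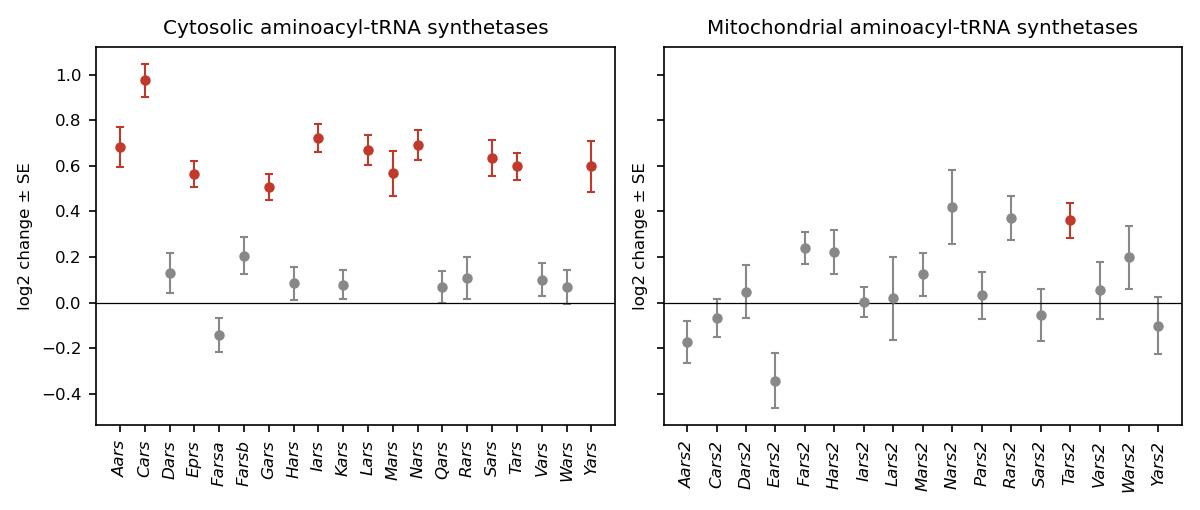
Log2 change, ivermectin minus vehicle, of cytosolic (left) and mitochondrial (right) aminoacyl-tRNA synthetase genes. Points are limma estimates and bars 1 standard error; red marks called genes and grey genes not called, and the 11 called cytosolic genes lie at or above 0.51.

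Hypoxia-inducible genes outside this response moved downward: of 25 tested (27 listed), 18 fell, 1 rose and 6 were not called, with a median of -0.46. When 1 library was left out 14 or 15 members were lower, and without the Yam1-zero libraries 13 were. Higd1a, which helps mitochondria under low oxygen, was at 25.5, 25.8 and 24.3 FPKM and 13.9, 14.7 and 14.7 FPKM (log2 change -0.76, limma adjusted p = 0.000155). Fam162a, a mitochondrial protein gene, was at 109.8, 104 and 98.4 FPKM and 57.5, 54.4 and 62.1 FPKM (log2 change -0.83, limma adjusted p = 0.000164). Both fell by close to the same size, with separate groups. Pdk1, which blocks entry of pyruvate into mitochondria, was at 56.9, 59.5 and 59.5 FPKM and 33.7, 25.02 and 26.7 FPKM, the ivermectin 1 library being the least reduced (log2 change -1.03). The secreted vasodilator Adm was at 63.3, 57.01 and 60.1 FPKM and 28.99, 29.9 and 26.3 FPKM (log2 change -1.06). The gene that rose was Pfkfb3, which makes an activator of phosphofructokinase (log2 change 0.44, limma adjusted p = 0.00644, or 0.0691 without the Yam1-zero libraries).

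Among 9 tested HIF subunits and oxygen sensors, 2 fell and none rose (median -0.16). Egln3, an inducible prolyl hydroxylase, was at 21.6, 21.9 and 22.4 FPKM and 6.09, 5.27 and 5.56 FPKM, and Egln1, the main hydroxylase acting on HIF-α, was at 62.3, 63.3 and 57.7 FPKM and 33.3, 33.1 and 33.1 FPKM. Both sets of ivermectin values were tight and far below vehicle (log2 changes -1.79 and -0.86). Egln2, the third hydroxylase, was at 19.6, 16.4 and 13.5 FPKM and 14.5, 16.01 and 13.3 FPKM, groups that overlapped (log2 change -0.16, limma adjusted p = 0.497). Hif1an, an asparagine hydroxylase, had a change of -0.16 (limma adjusted p = 0.241).

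Glycolysis and glucose uptake had 12 of 18 genes lower and none higher, with a median of -0.43, and 9 to 12 were lower when 1 library was left out. The decreases ran from the transporter Slc2a1 (-0.99) through Hk1, Gpi1, the phosphofructokinases Pfkl and Pfkp, both aldolases measured, Tpi1, Pgk1, Pgam1 and Pkm to Ldha. Gpi1 lost its call without vehicle 1 or vehicle 2 (limma adjusted p up to 0.0682), Pgam1 without vehicle 1, vehicle 2, ivermectin 1 or ivermectin 2 (up to 0.0657) and Pkm without vehicle 1, vehicle 2, vehicle 3 or ivermectin 1 (up to 0.0773), and Pfkp lost it without the Yam1-zero libraries (0.0709). Slc2a1 was at 50.4, 51.7 and 50.6 FPKM and 26.2, 24.9 and 24.5 FPKM (limma adjusted p = 6.16e-06), with tight replicates. Ldha, which makes lactate, was among the most abundant transcripts of the pathway, at 1883, 1885 and 1877 FPKM and 1263, 1295 and 1204 FPKM (log2 change -0.59, limma adjusted p = 0.000262). Isoforms of the same step did not all change. Pfkl, the liver phosphofructokinase, was at 46.7, 51.03 and 44.02 FPKM and 24.3, 24.2 and 17.5 FPKM (log2 change -1.08), whereas Pfkm, the muscle isoform, had a change of 0.04 (limma adjusted p = 0.726). The insulin-regulated transporter Slc2a4 and the lactate dehydrogenase Ldhb had changes of 0.01 and 0.17 and were not called (limma adjusted p = 0.958 and 0.169).

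Mevalonate and sterol synthesis had 13 of 20 genes lower, none higher and a median of -0.42, and 9 to 12 were lower when 1 library was left out. Fdps, which makes farnesyl diphosphate (chromosome 3, 89093588 to 89101959, minus strand), was at 69.1, 69.3 and 66.2 FPKM and 39.4, 42.7 and 45.9 FPKM (log2 change -0.67 ± 0.0646, limma adjusted p = 0.00018). Idi1, the isomerase before it, was at 18.02, 17.4 and 18.1 FPKM and 9.47, 10.4 and 13.1 FPKM, with ivermectin 3 the least reduced (log2 change -0.66). Hmgcs1 was at 23.3, 23.6 and 26.6 FPKM and 17.1, 17.1 and 16.4 FPKM (log2 change -0.51, limma adjusted p = 0.00132). Sqle, which oxidises squalene, was at 63.2, 55.5 and 59.8 FPKM and 42.96, 44.3 and 45.5 FPKM (log2 change -0.42). In each of these genes the groups did not overlap.

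Of 15 tested genes of SREBP control and cholesterol traffic 4 fell and none rose (median -0.11). Without vehicle 1, or without the Yam1-zero libraries, 2 fell. Insig1, a sterol-sensing anchor of SREBP, was at 54.5, 50.4 and 54.2 FPKM and 40.8, 39.7 and 39.5 FPKM, separate groups (log2 change -0.40, limma adjusted p = 0.00287). The Insig1 call was kept in each analysis. Genes of fatty acid synthesis (16 tested), fatty acid oxidation (31) and lipid droplets (16) gave 0 calls by limma, with medians of -0.10, 0.02 and -0.01. At an unadjusted p under 0.05 these lists held 3, 7 and 5 genes, beside 2339 of all 11190. The fatty acid synthesis gene with the smallest p was Acaca, acetyl-CoA carboxylase, at 15.1, 16.3 and 15.8 FPKM and 18.9, 18.4 and 19.004 FPKM (limma adjusted p = 0.0853).

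**Figure D4:**
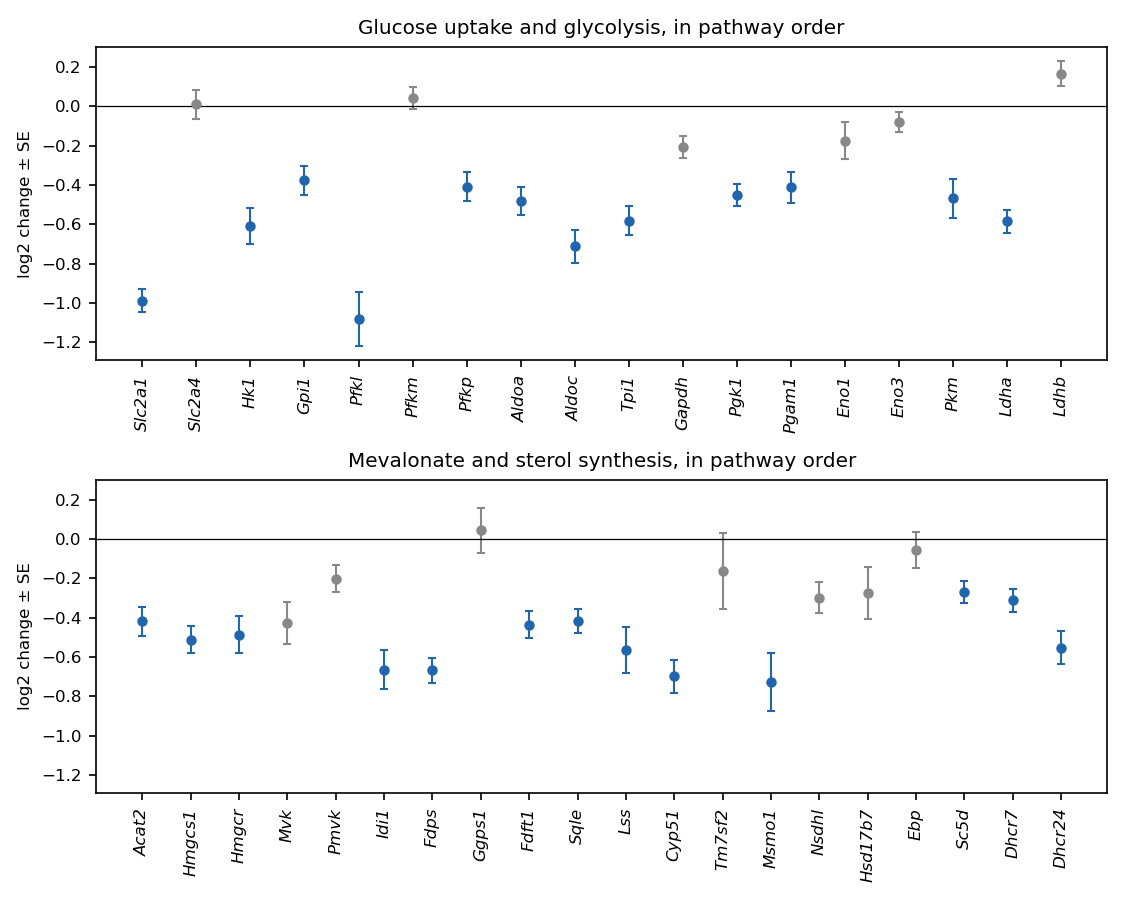
Log2 change, ivermectin minus vehicle, along glucose uptake and glycolysis (top) and along mevalonate and sterol synthesis (bottom). Points are limma estimates and bars 1 standard error; blue marks called genes and grey genes not called, with 12 of 18 and 13 of 20 genes called lower.

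Contractile genes fell in smaller steps. In the thick filament list 5 of 13 tested genes (17 listed) fell and none rose, with a median of -0.21; 2 fell without vehicle 1, vehicle 2 or ivermectin 1, and 1 without the Yam1-zero libraries. Mybpc3, which regulates myosin heads (chromosome 2, 91118144 to 91136516, plus strand), was at 172, 172 and 158 FPKM and 114, 118 and 109 FPKM, and its call was kept throughout (log2 change -0.55, limma adjusted p = 0.000496). Myh6, the atrial myosin heavy chain, was at 677, 699 and 620.1 FPKM and 494, 537 and 443 FPKM, separate groups with a change of -0.44 (limma adjusted p = 0.0085, or 0.0643 without the Yam1-zero libraries). In the thin filament list 4 of 13 fell (median -0.23), and 0 fell without vehicle 1, without ivermectin 1 or without the Yam1-zero libraries. Without vehicle 2, vehicle 3 or ivermectin 2, from 1 to 2 thin filament genes fell. Tnnt2, cardiac troponin T, was at 1925, 1572 and 1596 FPKM and 1263, 1443 and 1229.9 FPKM. These groups did not overlap but missed the threshold (log2 change -0.37, limma adjusted p = 0.0538, or 0.0147 after quantile normalization and 0.14 without vehicle 1).

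Z-disc and intermediate filament genes had 8 of 20 tested members lower and a median of -0.24. The count was 4 without vehicle 1 or ivermectin 1, 5 without vehicle 2 or ivermectin 3, and 3 without the Yam1-zero libraries. Synpo2l, an actin-bundling Z-disc protein gene (chromosome 14, 20658946 to 20668354, minus strand), was at 22.96, 20.6 and 19.7 FPKM and 11.02, 12.4 and 9.60 FPKM, the largest decrease of the list (log2 change -0.88 ± 0.0913, limma adjusted p = 0.000278). Xirp1, an actin-binding protein gene of the intercalated disc and Z-disc, was at 39.7, 37.2 and 36.9 FPKM and 25.4, 25.9 and 23.7 FPKM (log2 change -0.58). Both calls were kept in each analysis.

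Of 28 tested calcium-handling genes 4 fell and none rose (median -0.11), and 1 fell without the Yam1-zero libraries. That gene was Slc8a1, the sodium-calcium exchanger, at 67.5, 67.2 and 71.3 FPKM and 54.5, 53.2 and 56.5 FPKM (log2 change -0.32, limma adjusted p = 0.0119). Ryr2, the calcium release channel, was at 8.55, 10.5 and 9.11 FPKM and 9.76, 9.68 and 9.43 FPKM and was not called (log2 change 0.04). The 16 voltage-gated and potassium channel genes gave 0 calls by limma, with a median of -0.04. At an unadjusted p under 0.05 they held 5 genes, beside 2339 of all 11190. Gja1 and Gja5, the gap junction genes, had changes of 0.04 and -0.27 (limma adjusted p = 0.763 and 0.241). Among 20 cardiac transcription factors 3 fell and none rose (median -0.14), and 1 fell without vehicle 1, vehicle 2, ivermectin 1 or ivermectin 2 and 0 without the Yam1-zero libraries. Gata4 was at 86.2, 90.6 and 97.1 FPKM and 84.5, 83.9 and 88.3 FPKM, groups that overlapped (limma adjusted p = 0.453).

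Nppa, the atrial natriuretic peptide gene by which HL-1 cells are recognised, was at 174, 167 and 148 FPKM with vehicle and 174, 173 and 229 FPKM with ivermectin. The ivermectin 1 and 2 libraries lay close to the highest vehicle library and ivermectin 3 stood above the rest (log2 change 0.23, limma adjusted p = 0.258). Among 17 tested hormones and stress peptides 2 rose, Fgf21 and Gdf15, and 2 fell, Adm and Ctgf, and all 4 calls were kept whichever library was left out.

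**Figure D5:**
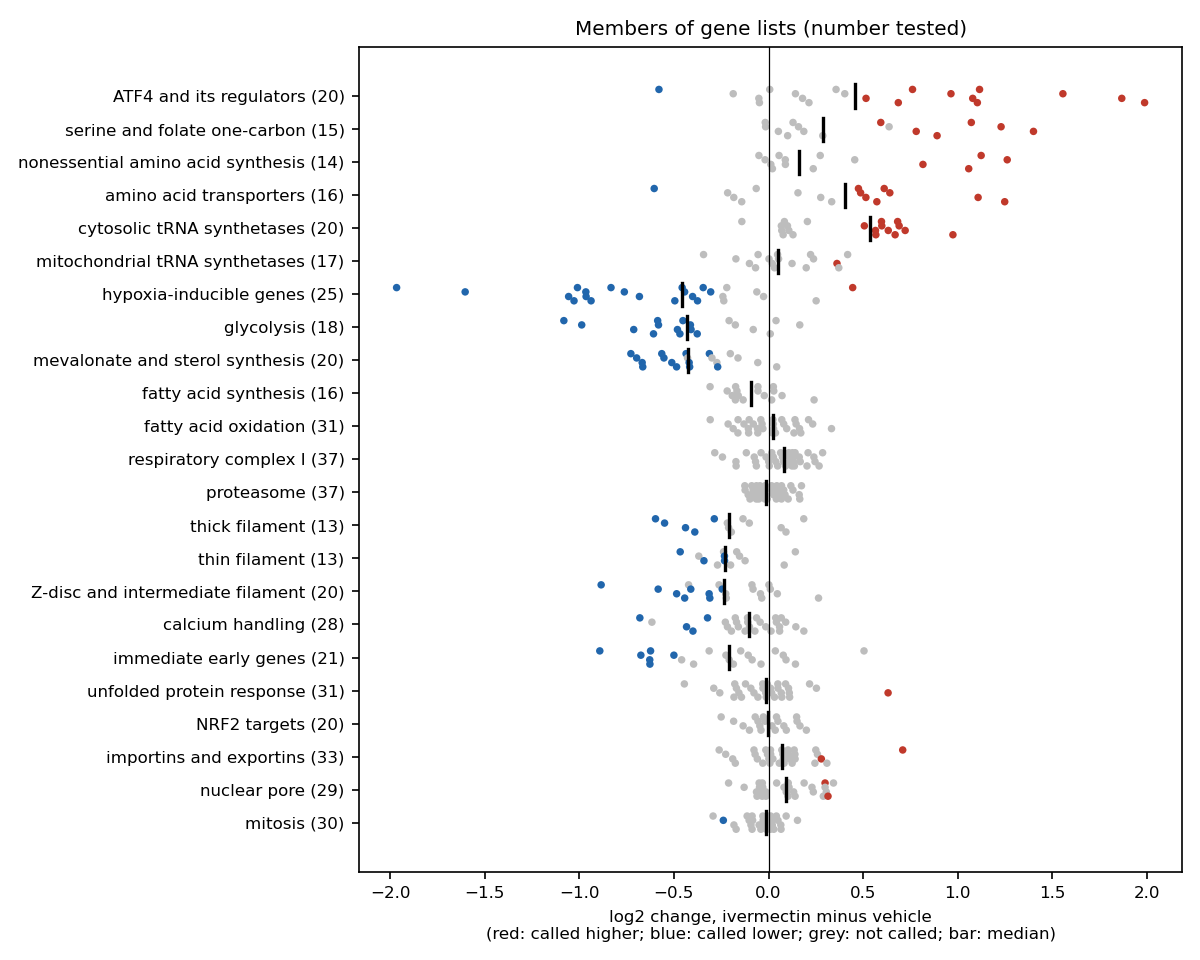
Members of 23 gene lists, each point 1 tested gene placed by its log2 change, ivermectin minus vehicle. Red and blue mark genes called higher and lower, grey genes not called, and black bars the list medians, which run from 0.54 for cytosolic tRNA synthetases to -0.46 for hypoxia-inducible genes.

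Ctgf and Lbh, taken from other pathways, had the lowest change of their lists, so they lie below the list medians by choice. Ctgf, a matrix protein gene and YAP target, was at 13.9, 12.6 and 12.7 FPKM and 8.13, 6.17 and 8.03 FPKM (log2 change -0.74, limma adjusted p = 0.00178), while the 16 tested YAP and TEAD targets had a median of -0.07. The other decrease of that list, Ajuba (limma adjusted p = 0.0379), lost its call without vehicle 1, vehicle 2, vehicle 3, ivermectin 1, ivermectin 2 or ivermectin 3 (adjusted p up to 0.112). Lbh, a Wnt-responsive cofactor gene, was at 71.6, 79.5 and 87.2 FPKM and 46.7, 46.7 and 43.03 FPKM (log2 change -0.79, limma adjusted p = 0.000252), while the 9 tested Wnt targets had a median of -0.01. Groups were separate in Ctgf and Lbh, and both calls were kept in each analysis. Dkk3, a secreted Wnt antagonist, rose (log2 change 0.32, limma adjusted p = 0.00964), a call that ended without vehicle 2 (0.0518).

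Intercalated disc genes, which join cardiomyocytes end to end, fell in 4 of 19 tested members (median -0.14): Xirp1, as above, Jup, Dsp and Cdh2. Left-out libraries moved that count to 1 (vehicle 1, vehicle 2 or the Yam1-zero libraries) or 2 (vehicle 3, ivermectin 1 or ivermectin 3). Jup, a desmosome protein gene, was at 73.2, 69.99 and 64.5 FPKM and 52.2, 56.5 and 45.7 FPKM (log2 change -0.42, limma adjusted p = 0.0176). Without vehicle 1 or vehicle 2 it was not called (adjusted p up to 0.0671). The calls of Dsp (limma adjusted p = 0.0271, up to 0.0985) and Cdh2 (limma adjusted p = 0.0356, up to 0.109) ended without vehicle 1, vehicle 2, vehicle 3, ivermectin 1 or ivermectin 3 and without any 1 of the 6 libraries, respectively. Of 20 clock genes 2 fell, Bhlhe40 and Per1, and 1 rose, beside 2.56% of all genes called lower and 1.82% called higher. The count of higher clock genes was 0 without vehicle 1, vehicle 2, ivermectin 1 or ivermectin 3. The call of Per1 (limma adjusted p = 0.0156, up to 0.0594) ended without vehicle 1 or vehicle 3. Of 43 lysosome and autophagy genes 2 rose, beside 1.82% of all genes. These were Ctsl and Atg3 (log2 changes 0.33 and 0.37, limma adjusted p = 0.017 and 0.0194, up to 0.0612 and 0.0713). The count was 0 without vehicle 1 or ivermectin 1 and 1 without vehicle 2, vehicle 3 or ivermectin 2.

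Immediate early genes, the first to respond to growth signals, had 6 of 21 tested members lower and none higher (median -0.21). The count was 2 without vehicle 1 or ivermectin 1, 3 without ivermectin 2 and 3 without the Yam1-zero libraries. Ier3, a survival-related early gene (chromosome 17, 35821684 to 35822923, plus strand), was at 25.97, 26.96 and 27.4 FPKM and 14.1, 12.7 and 15.2 FPKM (log2 change -0.89 ± 0.0727, limma adjusted p = 5.31e-05). Jund, a JUN family transcription factor, was at 13.8, 10.8 and 10.9 FPKM and 6.68, 7.47 and 7.69 FPKM (log2 change -0.63, limma adjusted p = 0.00421). Those 2 calls were kept whichever library was left out. Fos was at 6.94, 4.77 and 4.68 FPKM and 2.74, 2.91 and 3.38 FPKM, with a call (limma adjusted p = 0.035) that ended without vehicle 1, vehicle 2, ivermectin 1, ivermectin 2 or ivermectin 3, with adjusted p up to 0.0971.

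Tfrc was the decrease among 20 tested iron genes, of which 1 rose and 18 were not called, with a median of 0.07. The gene that rose, the metalloreductase Steap2, lost its call when any of the 6 libraries was left out (limma adjusted p = 0.0487, up to 0.141). Among 22 p53 target and growth arrest genes 4 rose and 1 fell, with 2 higher without vehicle 2, without ivermectin 3 or without the Yam1-zero libraries. Gadd45a rose, as above, while its relative Gadd45b was at 6.03, 5.58 and 4.95 FPKM and 3.79, 3.71 and 2.88 FPKM (log2 change -0.55, limma adjusted p = 0.0179). The call of Gadd45b ended without vehicle 1, vehicle 2 or ivermectin 3, with adjusted p up to 0.0675.

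The unfolded protein response gave 1 call among 31 tested genes, with a median of -0.01. Herpud1, a component of endoplasmic reticulum protein disposal, was at 26.8, 22.5 and 25.8 FPKM and 39.8, 36.5 and 41.5 FPKM (log2 change 0.63, limma adjusted p = 0.00125). Among 27 heat shock and chaperone genes 1 rose and 2 fell. Hspa9, the mitochondrial HSP70, was at 153, 154 and 157 FPKM and 222, 231 and 245 FPKM (log2 change 0.58, limma adjusted p = 0.000164). Hspb7, a small heat shock protein gene of heart muscle, was at 179, 179 and 164 FPKM and 124, 125 and 120.5 FPKM (log2 change -0.49, limma adjusted p = 0.00161). The other decrease, Cryab, lost its call without vehicle 1, vehicle 2, ivermectin 1, ivermectin 2 or ivermectin 3 (limma adjusted p = 0.0343, up to 0.107).

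Nuclear transport genes include the import machinery that ivermectin is used to block. Of 33 importins, exportins and Ran cycle genes 2 rose and none fell (median 0.07), beside 1.82% of all genes called higher. Xpot, which exports tRNA from the nucleus (chromosome 10, 121587380 to 121626332, minus strand), was at 8.74, 7.83 and 7.53 FPKM and 13.2, 14.05 and 13.9 FPKM (log2 change 0.71 ± 0.0770, limma adjusted p = 0.000382). Its call was kept in each analysis, and the other, Rcc2, lost its call without vehicle 1, vehicle 2, ivermectin 1, ivermectin 2 or ivermectin 3 (limma adjusted p = 0.0237, up to 0.101). The importin-β gene Kpnb1 was at 81.6, 75.2 and 71.2 FPKM and 72.9, 80.8 and 77.9 FPKM, and Kpna2 was at 61.3, 65.9 and 66.3 FPKM and 66.2, 67.6 and 74.9 FPKM. Kpna1, Kpna3, Kpna4 and Kpna6 had changes of 0.07, 0.26, 0.14 and -0.07, and none of these 6 importin genes was called (limma adjusted p from 0.225 to 0.877). Of 29 nuclear pore genes 2 rose, beside 1.82% of all genes. These were Nup210 and Nup188, at log2 changes of 0.31 and 0.30 (limma adjusted p = 0.0248 and 0.031). The call of Nup210 ended without vehicle 1, vehicle 2, vehicle 3, ivermectin 2 or ivermectin 3, and that of Nup188 without any 1 of the 6 libraries, with adjusted p up to 0.0982 and 0.0968.

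Genes of known ivermectin-binding proteins, which are channels apart from the nuclear receptor Nr1h4, were mostly under the 1 FPKM filter. Of 20 listed, 5 were tested, and the glycine receptor gene Glra1 was at 0.0488 FPKM or less in the 6 libraries. P2rx7, an ATP-gated channel, was at 3.92, 3.999 and 3.50 FPKM and 5.71, 6.64 and 6.87 FPKM, separate groups at a low level (log2 change 0.62, limma adjusted p = 0.00333). P2rx4, the ATP-gated channel best known for potentiation by ivermectin, was at 8.40, 10.3 and 8.06 FPKM and 12.4, 11.9 and 11.1 FPKM. These groups did not overlap but missed the threshold (log2 change 0.37, limma adjusted p = 0.0533, or 0.0221 without vehicle 2 and 0.148 without vehicle 3). The potassium channel genes Kcnj3 and Kcnj5 and Nr1h4 were also tested and not called, with changes of -0.04, -0.07 and 0.02.

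Multidrug efflux pumps, some of which export ivermectin, gave 0 calls among 7 tested genes by limma. At an unadjusted p under 0.05 there were 2, beside 2339 of all 11190 genes. Abcb1a, a P-glycoprotein gene, was at 0.909, 0.973 and 1.33 FPKM with vehicle and 5.05, 1.39 and 3.28 FPKM with ivermectin, so every ivermectin value was higher but they spread from near the vehicle level to several times it. Its log2 change was 0.94 (limma adjusted p = 0.0731, or 0.00269 without ivermectin 2, its lowest ivermectin value, and 0.182 without vehicle 2). Abcb1b, the other P-glycoprotein gene, was at 5.36, 5.10 and 5.16 FPKM and 6.34, 6.46 and 6.70 FPKM (log2 change 0.27, limma adjusted p = 0.0584). These near-identical copies could share reads. Abcc1, Abcc4, Abcc5, Abcc10 and Abcg2 had changes of -0.04, 0.10, 0.16, -0.04 and -0.07.

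Several large gene families gave between 0 and 2 calls by limma. Complex I (37 genes, median 0.08), complexes II and III (14, 0.03), ATP synthase (17, 0.06), mitochondrial ribosomal proteins (74, 0.05), the proteasome (37, -0.02), NRF2 antioxidant targets (20, 0.00) and interferon-stimulated genes (25, 0.07) gave 0. At an unadjusted p under 0.05 they held 6, 2, 0, 15, 0, 1 and 5 genes, in that order, beside 2339 of all 11190. Of 75 cytosolic ribosomal protein genes 74 had a positive change and 1, Rps24, was called, with a median of 0.19 and 38 at an unadjusted p under 0.05. The Rps24 call (limma adjusted p = 0.0483) ended without vehicle 1, vehicle 2, vehicle 3, ivermectin 2 or ivermectin 3, with adjusted p up to 0.168, and without ivermectin 1 the count was 3. Relative to the vehicle mean, the list median was 0.0673, 0.160 and 0.347 in ivermectin 1, 2 and 3, so the shift was uneven, and vehicle 1 stood at 0.0734. DNA replication (37 genes, median -0.09) and mitosis (30, -0.02) gave 2 and 1 decreases, beside 2.56% of all genes called lower. The replication clamp gene Pcna lost its call without any 1 of the 6 libraries (limma adjusted p = 0.0407, up to 0.121). E2f1 lost it without vehicle 1, vehicle 2 or ivermectin 3 (limma adjusted p = 0.0195, up to 0.0824), and the cyclin gene Ccna2 without vehicle 1, vehicle 2, vehicle 3, ivermectin 1 or ivermectin 2 (limma adjusted p = 0.0307, up to 0.116).

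A direct test against importazole, in which 390 genes differed (3.49% of those tested), sets the ivermectin libraries beside another import inhibitor. Ivermectin was given at 5 µM and importazole at 10 µM, and this test shares the ivermectin libraries with the comparison above. Bnip3 was at 46.4, 41.6 and 41.8 FPKM with importazole, close to its vehicle values, and the difference from ivermectin was -2.02 log2 units (limma adjusted p = 8.00e-08). Slc2a1 was at 51.8, 54.9 and 50.8 FPKM with importazole (difference -1.03, limma adjusted p = 2.28e-06), and Tfrc at 36.7, 37.2 and 44.8 FPKM (difference -1.51, limma adjusted p = 3.70e-06). Fdps, lower with ivermectin, was at 183, 174 and 179 FPKM with importazole, above every vehicle library (difference -2.04, limma adjusted p = 6.27e-08).

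Among genes that rose, Slc25a33 was at 10.02, 9.85 and 9.07 FPKM with importazole, between vehicle and ivermectin (difference 0.58, limma adjusted p = 0.00205). Gadd45a was at 12.5, 10.6 and 11.6 FPKM, also between them (difference 0.66, limma adjusted p = 0.011). Fgf21 and Mthfd2 likewise differed, by 0.72 and 0.37 log2 units (limma adjusted p = 0.00558 and 0.00843). Atf4 itself was at 163, 148 and 147 FPKM with importazole, among the ivermectin values (difference 0.04, 95% interval -0.13 to 0.20, limma adjusted p = 0.86). Phgdh (difference 0.05, 95% interval -0.08 to 0.18) and P2rx7 (difference -0.01, 95% interval -0.21 to 0.19) did not pass either (limma adjusted p = 0.691 and 0.972). Hspb7, which fell, was at 121, 139 and 126 FPKM with importazole (difference -0.06, 95% interval -0.21 to 0.08, limma adjusted p = 0.681). A p that misses the threshold does not show that the compounds act alike on these genes.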

How the data were processed

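RNA from HL-1 cells was captured as mRNA and sequenced on an Ion Proton, per the labels' protocols. The deposited values are FPKM per gene symbol and library, made by the authors with STAR, Bowtie2, Bowtie and Cufflinks on mm10 (GRCm38), per the submitters' processing notes. The roles and versions of these tools, the annotation and the strand use were not given in the sources used here. The values do not step in whole reads, so depth is unknown and no counting interval is given.

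Repeated symbols were summed. Genes reaching 1 FPKM in 3 or more of the 6 vehicle and ivermectin libraries were tested on log2(FPKM + 1) with limma 3.58.1 (R 4.3.3; trend and robust moderation) fitted to all 9 libraries, and adjusted by Benjamini-Hochberg. The fit was tested on simulated data of 11190 genes, where it recovered 62.69%, 98.51% and 100% of genes changed by 0.5, 1 and 2 log2 units, and 7.447% of its calls were false. Tables and promoter searches used Python 3.11.15 and pandas 2.3.3.

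Named genes are the 15 largest increases and decreases among called genes of at least 5 FPKM on average with separate groups (small RNAs, predicted genes and ribosomal pseudogenes left out), up to 5 members of smallest p per list, importin-α and importin-β genes, HL-1 identity genes, ivermectin-binding channels and efflux pumps. The members and lists were chosen with earlier results of these data known. Got1, Pfkm, Ldhb, Slc2a4, Aars, the synthetases that bound the ranges, glycolysis genes named without values, the cell type markers and the genes under other observations were chosen after their values were seen. Alternatives covered the pseudocount, filter, scaling, model, threshold and left-out libraries. Kpna5 was not analysed here, and a few genes are not reported here.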

Additional observations from a re-analysis of the deposited data

How the results depend on the processing

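No alternative reversed a direction. Of the 490 calls, 187 were kept whichever of the 6 libraries was left out and 153 under every alternative that tested them. Leaving out 1 library at a time gave 244 to 365 changed genes, 96 to 148 higher and 131 to 227 lower. With no filter on low values there were 239 (101 higher, 138 lower), with a fit to the 6 libraries alone 273 (114 and 159), and without the libraries that list Yam1 at 0 there were 195 (81 and 114). At an adjusted p under 0.01 there were 174. The filter alternative tests more genes and the smaller fits hold fewer samples; otherwise the cause was not tested. Between libraries of the same replicate number, deviations from the group means had correlations of 0.088, -0.192 and -0.207. Deviations from a mean of 3 libraries constrain each other, so these values cannot settle whether the numbers pair the libraries. A replicate block gave 353 calls. The highest correlation, 0.334, was between vehicle 2 and ivermectin 3, the libraries that list Yam1 at 0; the part of this in the results was not tested. Quantile and median-of-ratios scaling gave 616 and 643. Depth is unknown, and 3 libraries per group limit the precision.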

Other observations

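The genes here were chosen after their values were seen, and their calls were kept under every alternative that tested them. Atp2a3, Stc1, Apln and Ak4 were not tested under the 5 FPKM filter. Atp2a3 was under 1 FPKM in every vehicle library and passed the main filter only through the ivermectin libraries, where it was high. Apln and Ak4 passed it through the vehicle libraries, where they were higher. Gas5, a noncoding RNA that hosts small nucleolar RNAs, rose (log2 change 0.55, limma adjusted p = 0.000526), from 95.8, 94.9 and 95.5 FPKM with vehicle to 139, 131 and 149.8 FPKM with ivermectin, and Snhg6, another such host, had a log2 change of 0.71. Tfpi, an inhibitor of coagulation, was at 6.53, 8.31 and 5.78 FPKM and 12.9, 10.1 and 14.3 FPKM (0.77), and Nceh1, a cholesteryl ester hydrolase, at 20.7, 22.8 and 20.7 FPKM and 33.2, 34.2 and 37.5 FPKM (0.68). Atp2a3, a calcium pump of the endoplasmic reticulum, was at 0.626, 0.959 and 0.914 FPKM and 3.34, 4.15 and 2.98 FPKM (1.29).

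Other genes fell. Stc1, a secreted glycoprotein, was at 4.19, 4.95 and 5.61 FPKM and 2.14, 1.45 and 1.499 FPKM (log2 change -1.14, limma adjusted p = 0.000878), and Apln, the apelin peptide gene, at 2.53, 2.72 and 2.69 FPKM and 0.710, 1.11 and 0.729 FPKM (-0.98). Ak4, a mitochondrial adenylate kinase, was at 3.36, 3.83 and 3.07 FPKM and 0.530, 1.25 and 0.727 FPKM (-1.28). Vim and Anxa2, which encode vimentin and annexin A2, were at 475, 448 and 406 and 81.5, 78.2 and 73.8 FPKM with vehicle and at 302, 306 and 291 and 49.5, 49.3 and 48.9 FPKM with ivermectin (-0.56 and -0.65). In each of these genes the groups did not overlap.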
